A study of Rattus norvegicus with 2 samples.

Results

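The 8 genes Sftpd, Scgb1a1, Aqp3, Atp12a, Vtcn1, Lpo, Slc6a14 and Tmem45b were followed cell by cell in the epithelium of the fetal rat colon, among 28116 gene symbols in all. They were taken as a group of defence and transport genes of the distal epithelium. They were chosen by their lower UMI counts in the maternal obesity library and by their detection together with the posterior homeobox gene Hoxb13 in these same cells. Their library difference and their overlap with Hoxb13 are therefore descriptions here and test nothing. The study ran droplet single-cell RNA-seq on colon of wild-type (WT) rat fetuses at E19.5, in 1 library of a control group and 1 library of a maternal obesity group. The labels give neither the number nor the sex of the fetuses behind a library, nor the stretch of colon that was taken. With 1 library per group, each difference below is between 2 libraries and has no replicate check. Intervals are 95% intervals and cover counting error only.

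The control library held 103013814 unique molecular identifiers (UMIs, each standing for 1 captured transcript) in 8903 barcodes and the maternal obesity library 120811946 in 9714. Barcodes were kept from 500 genes upwards and up to 20% mitochondrial UMIs, and after removal of called doublets they numbered 6819 and 7102, and 130 barcode sequences occurred in both libraries. The doublet caller marked 0.872% and 1.85% of cells against 7.12% and 7.77% expected, so doublets remained. Haemoglobin genes took 11.5% and 20.7% of all UMIs. Epithelial-like cells numbered 2339 in control and 1139 in maternal obesity, with a median of 16782 and 24070 UMIs per cell. In what follows "level" means UMIs of a gene per 1000000 UMIs summed over the cells described (CPM). "Share" means the percentage of cells with at least 1 UMI after each cell was thinned to 5000 UMIs, which kept 2101 control and 1100 maternal obesity epithelial-like cells and left out 238 and 39.

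The colonic epithelium secretes proteins that bind or kill microbes and takes up water and salt, and both tasks differ along its length. Homeobox genes are expressed in nested domains along the gut axis, with Hoxb13 and its paralogues Hoxd13 and Hoxa13 restricted to the hindgut end. Sftpd encodes surfactant protein D, a secreted collectin that binds sugars on microbes. Scgb1a1 encodes the small secreted protein of airway club cells, and Lpo encodes lactoperoxidase, which makes antimicrobial oxidants from hydrogen peroxide. Aqp3 is a basolateral channel for water and glycerol, Atp12a the non-gastric proton-potassium pump of the distal colon, and Slc6a14 a sodium- and chloride-driven amino acid transporter. Vtcn1 encodes B7-H4, a cell-surface protein that restrains T cells, and Tmem45b encodes a membrane protein whose work in the gut is less well understood.

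RefSeq promoters (assembly GRCr8) were found for 6 of the 8 genes, with 7 promoters in all since Atp12a had 2. Sftpd and Tmem45b were not matched. The 250 bases before the annotated start are shown for 3 of the genes, chosen because they hold different sets of the 5 motifs searched and, as reported below, differ in how they follow Hoxb13. Scgb1a1 lies at chr1:215409687-215409936 on the minus strand, Vtcn1 at chr2:190941974-190942223 on the plus strand and Slc6a14 at chrX:117144676-117144925 on the plus strand. Capitals mark matches to the motifs TTGCNNAA (C/EBP type), CAAGTG (NKX type), TGANTCA (AP-1 type) and CNATAAA (caudal and posterior HOX type).
Scgb1a1: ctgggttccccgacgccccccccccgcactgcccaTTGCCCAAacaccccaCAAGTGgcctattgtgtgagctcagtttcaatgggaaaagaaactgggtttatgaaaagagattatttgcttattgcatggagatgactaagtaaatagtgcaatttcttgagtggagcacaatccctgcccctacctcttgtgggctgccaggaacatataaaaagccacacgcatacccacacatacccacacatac
Vtcn1: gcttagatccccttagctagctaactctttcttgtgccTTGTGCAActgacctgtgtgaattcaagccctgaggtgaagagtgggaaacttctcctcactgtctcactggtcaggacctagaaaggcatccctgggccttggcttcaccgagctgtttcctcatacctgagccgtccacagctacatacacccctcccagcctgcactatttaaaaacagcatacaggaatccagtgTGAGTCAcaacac
Slc6a14: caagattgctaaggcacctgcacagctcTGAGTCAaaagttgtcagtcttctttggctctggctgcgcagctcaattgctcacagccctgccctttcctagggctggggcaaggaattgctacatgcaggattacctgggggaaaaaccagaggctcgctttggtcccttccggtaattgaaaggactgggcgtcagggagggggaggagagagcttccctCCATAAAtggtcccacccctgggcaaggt

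Both strands of each promoter (250 bases before to 50 after the start) were searched. The motif CNATAAA was in 1 of the 7 promoters, that of Slc6a14, against 11.3% of 33469 rat promoters. It begins at base -29 from the start there, where its letters overlap a TATA-type box. TTGCNNAA was in 4 of the 7 (Scgb1a1, Vtcn1 and both of Atp12a) against 10.6% of all promoters. TGANTCA was in 2 against 7.33% and CAAGTG in 2 against 14.1%. The forkhead-type motif TGTTTAC was in none of the 7 against 3.78%. No motif searched was shared by all the promoters, and these matches are letters in a window and not measured binding.

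All 8 genes were mainly epithelial in both libraries. Epithelial-like cells held between 85.5% (Vtcn1) and 94.2% (Sftpd) of each gene's UMIs in control and between 75.8% (Vtcn1) and 94.1% (Sftpd) in maternal obesity. Fibroblast-like cells, which should lack these genes, give the background of free RNA, at a median of 7087 and 7899 UMIs per cell. Their level was at most 4.15% of the epithelial level in control (Scgb1a1) and at most 4.51% in maternal obesity (Atp12a). Their shares were 9.59% and 1.02% for Scgb1a1 and 3.11% and 0.158% for Sftpd in control and maternal obesity. The background of these secreted products was thus higher in the control library. Among the other named classes with at least 50 cells, erythroid-like cells of the control library had the highest level of each of the 8 genes, from 12.03% of the epithelial level for Atp12a to 59.97% for Aqp3, and Hoxb13 stood at 23.3% there. The unnamed clusters of the control library, 666 cells with a median of 1275 UMIs, held 118 CPM of Scgb1a1, 15.2 CPM of Atp12a and 19.9 CPM of Vtcn1, above the erythroid-like 108 (Scgb1a1), 2.48 (Atp12a) and 2.90 CPM (Vtcn1), and were also above the erythroid-like level for Slc6a14 and Tmem45b. Unnamed clusters with 276 and 336 of these control cells scored highest for epithelial markers. Their UMIs are therefore not read as lying outside the epithelium. Of the control erythroid-like cells 6.27% had at least 3 of the 8 genes, against 0 of 586 in maternal obesity, which allows up to 0.512%. Aqp3, which is also found in the red cell membrane, stood at 5.60 CPM in erythroid-like cells of the maternal obesity library, from 71 UMIs, of which a single cell held 42 (59.2%), and 14 of 600 cells had any.

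The secreted defence genes were lower in the epithelium of the maternal obesity library. Sftpd had 197 CPM in control against 22.2 in maternal obesity, 8.90-fold lower (8.25 to 9.60), and its share was 26.6% against 5.18%. Scgb1a1 was at 515 and 95.5 CPM, 5.40-fold lower (5.20 to 5.60), with shares of 32.6% and 8.82%. Its UMIs were uneven between cells, since a single control cell held 414 of the 24476 and a single maternal obesity cell 163 of the 3180. Lpo was at 18.3 and 8.795 CPM, 2.08-fold lower (1.82 to 2.39), with shares of 5.57% and 2.73%.

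The transport genes were lower too, by unequal folds. Aqp3 had 117 CPM in control against 17.0 in maternal obesity, 6.90-fold lower (6.33 to 7.54), with shares of 28.7% and 5.27%. Atp12a was at 20.6 and 3.30 CPM, 6.25-fold lower (5.13 to 7.68), with shares of 5.33% and 1.00%. A single cell gave 24.5% of the 110 Atp12a UMIs of the maternal obesity library. Slc6a14 was at 26.4 and 7.20 CPM, 3.67-fold lower (3.19 to 4.23), with shares of 9.52% and 2.91%.

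Vtcn1 and Tmem45b were lower by very unequal folds. Vtcn1 had 21.8 CPM in control against 1.501 in maternal obesity, 14.5-fold lower (10.9 to 19.7), from 1034 and 50 UMIs, with shares of 10.7% and 1.09%. Tmem45b was at 126 and 59.6 CPM, 2.11-fold lower (2.01 to 2.22), with shares of 35.4% and 20.4%. All 8 genes were thus at least 2-fold lower in maternal obesity, as were 6.35% of the 13451 genes with at least 20 UMIs in these cells, while 5.39% were at least 2-fold higher. The members' median log2 ratio was -2.54 and that of all genes 0.05, and nothing is read from the count because this contrast chose the genes. The count was 6 when sub-clusters were weighted equally, with Slc6a14 at -0.56 and Tmem45b at -0.05 (log2), and 7 without sub-clusters E10 and E12, described below, with Tmem45b at -0.62. Those with the smallest fold were Lpo and Tmem45b, just past 2-fold. Hoxb13 itself was at 167 and 31.8 CPM, 5.26-fold lower (4.93 to 5.61).

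**Figure D1:**
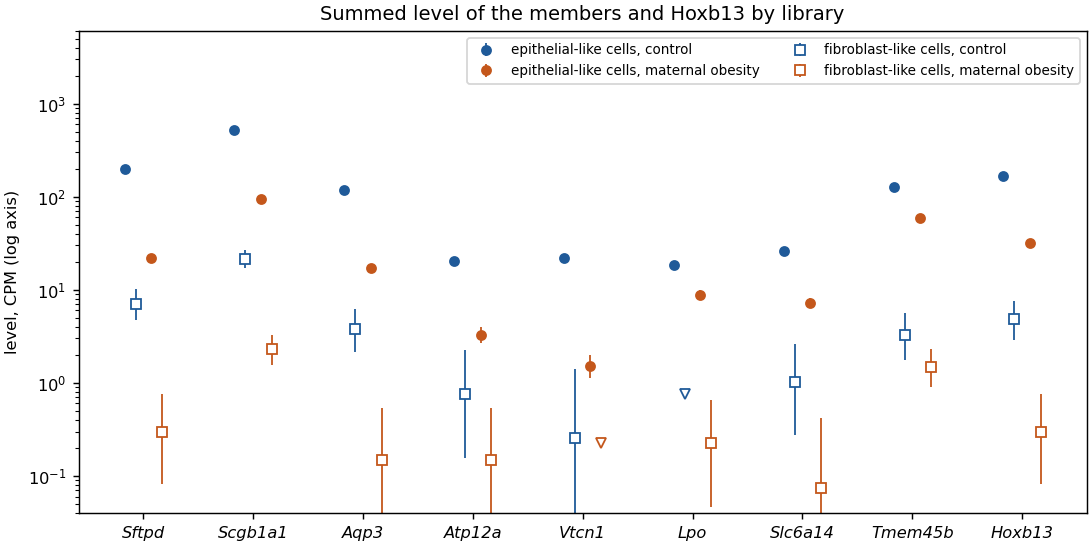
Level (CPM, log axis) of the 8 genes and Hoxb13 in epithelial-like cells (filled circles) and fibroblast-like cells (open squares) of the control (blue) and maternal obesity (orange) library, with exact Poisson 95% intervals. Open triangles mark a gene with 0 UMIs, drawn at the limit of 3 counts. The epithelial-like level was higher in control for all 9 genes, and the fibroblast-like level lay well under the epithelial one in each library.

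The genes tended to occur in the same cells. In control, 27.8% of epithelial-like cells (25.9 to 29.8) had UMIs of at least 3 of the 8 genes, and in maternal obesity 6% (4.67 to 7.57). At full depth these shares were 41.3% and 10.1%. No fibroblast-like cell had 3 of them, among 386 in control (up to 0.777%) and 1268 in maternal obesity (up to 0.237%). A control cell carried a median of 1 of the 8 genes and a maternal obesity cell a median of 0. No cell carried all 8 after thinning, and 6 control cells carried 7.

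Sftpd and Scgb1a1 overlapped closely in both libraries. In control, 80.9% of the 559 cells with Sftpd also had Scgb1a1, against 15.05% of cells without Sftpd. In maternal obesity, 82.5% of the 57 cells with Sftpd had Scgb1a1, against 4.79% of the others. So the defence pair went together to a like extent in the cells that had Sftpd, although those cells were fewer in maternal obesity. Read from Scgb1a1 the overlap was less alike. Sftpd was in 452 of the 684 control cells with Scgb1a1 and in 47 of the 97 in maternal obesity. Of the cells with Sftpd, 67.4% in control and 49.1% in maternal obesity also had Aqp3. Tmem45b was found in 65.7% and 59.6% of them, against 24.4% and 18.2% of cells without Sftpd.

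Taking all 28 pairs, co-detected cells were compared with the number given by the product of the 2 shares. In control, 20 of 28 pairs reached 1.5 times that number, where 9.09% of all pairs of a member with any gene did so. In maternal obesity 24 of 28 pairs did, where 17.9% of all such pairs did, and 19 did in another random draw of the thinned counts. Within Hoxb13-positive cells alone the count was 3 of 28 in control (median ratio 1.29) and 9 of 28 in maternal obesity (median 1.20). Within Hoxb13-negative cells it was 25 of 28 (median 2.82) and 18 of 28 (median 2.83). The share over all genes was not taken within either set of cells. The ratio cannot exceed the inverse of a share, so its size is not comparable between libraries or sets of cells with different shares. In control the median over the 7 pairs of a gene ran from 1.28 for Vtcn1 to 2.48 for Sftpd, and Vtcn1 also had the lowest median in maternal obesity, 1.61. Vtcn1 overlapped with Scgb1a1 in 78 control cells against 72.9 given by the shares, so that pair showed little excess. The Pearson correlation over cells of the same library had a median of 0.21 over the pairs in control and 0.24 in maternal obesity. The points of these correlations are cells of a single library with equal thinned depth.

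**Figure D2:**
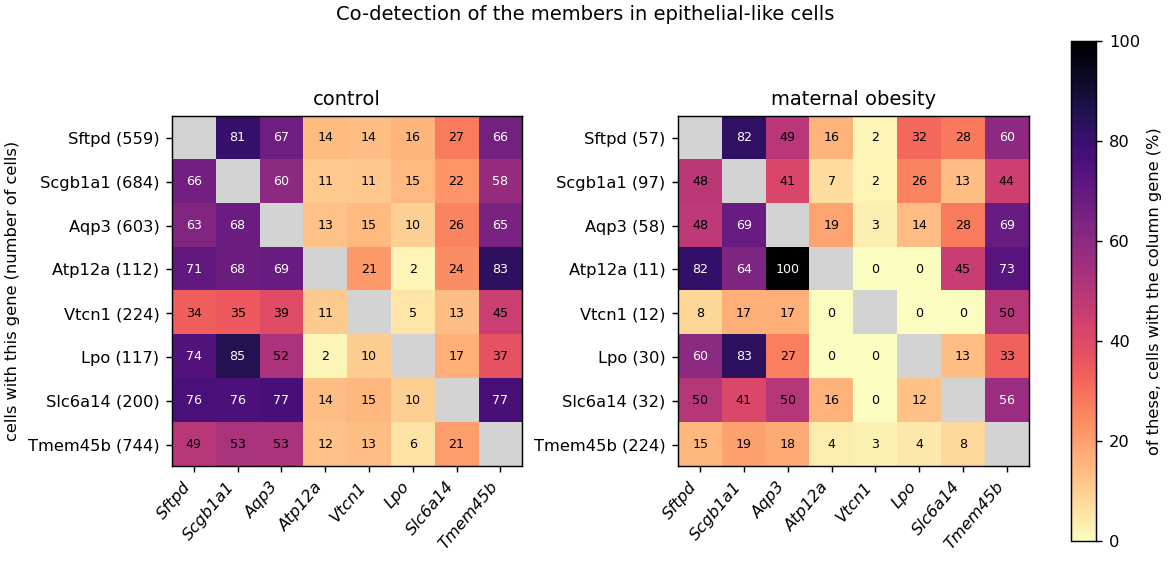
Of the epithelial-like cells with the gene of a row (number of cells in brackets, after thinning to 5000 UMIs), the percentage that also had the gene of a column, in control (left) and maternal obesity (right). In control, Sftpd, Scgb1a1 and Aqp3 shared most of their cells. In maternal obesity, Aqp3 was in 49.1% of cells with Sftpd and 41.2% of cells with Scgb1a1. Vtcn1 shared fewer cells with these genes, and cells with Atp12a and with Lpo hardly overlapped at this depth. Rows of the maternal obesity library rest on as few as 11 cells.

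Atp12a and Lpo stood apart from each other. After thinning, 112 control cells had Atp12a and 117 had Lpo, and 2 had both where the shares give 6.24. Within Hoxb13-positive control cells 1 cell had both where 10.1 were given. In maternal obesity, 0 of the 11 cells with Atp12a had Lpo. At full depth, however, 24 control cells had both against 27.0 given by the shares, and 4 maternal obesity cells against 1.07. Thinned to 10000 UMIs, 6 control cells had both against 9.96 given by the shares, and 0 maternal obesity cells against 0.535. The low overlap in control was thus seen at both thinned depths. It was not seen at full depth, where cells of unequal depth are pooled. What lies behind this change with depth was not tested.

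Atp12a and Lpo had their highest levels in different sub-clusters of the epithelium, although E12 below held both. Epithelial-like cells were split into numbered sub-clusters, named below by their leading genes. Atp12a had its highest control levels in E10 (243 CPM) and E12 (108 CPM), and 2.59 CPM in E0 and 4.86 CPM in E1. E10 was led by the sodium transport genes Fxyd4 and Scnn1g with Slc37a2, Psca and the keratin Krt4, and E12 by Upk1b, Slc37a2 and Upk1a. Atp12a was itself among the leading genes of both, and Lpo among those of E0 and E1, so these levels describe how the cells were grouped. Lpo had its highest control levels in E1 (69.6 CPM) and E0 (37.4 CPM), which were led by Lpo together with Olfm4, a gene of crypt progenitors. In E10 Lpo stood at 9.38 CPM and in E12 at 20.02 CPM, beside 18.3 CPM over all control epithelial-like cells.

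Partner genes were then counted cell by cell, mostly different ones for Atp12a and for Lpo. In control, 40.2% of cells with Atp12a had Fxyd4 (31.0 to 49.9), a regulator of the sodium pump, against 2.61% of cells without Atp12a. Upk1a, a urothelial plaque protein, was in 32.1% against 3.52%. Atp1b1, a beta subunit of the sodium pump, was in all 112 cells with Atp12a and in 92.8% of the others. Cells with Lpo had Olfm4 in 28.2% (20.3 to 37.3) against 4.33% of the others in control, and in 53.3% (34.3 to 71.7) against 2.34% in maternal obesity. Duox2, an oxidase that supplies hydrogen peroxide, was in 15.4% of control cells with Lpo against 6.15% of the others, and Fxyd4 was in 1.71% against 4.79%. Best2, an anion channel gene, was counted for both. It was in 25.9% of control cells with Atp12a against 22.2% of the others, and in 21.4% of those with Lpo against 22.5%. In maternal obesity it was in 27.3% (3 cells) against 4.50% for Atp12a and 13.3% (4 cells) against 4.49% for Lpo.

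Sftpd, Scgb1a1, Aqp3, Slc6a14 and Tmem45b had their highest control levels in E10, followed by E12. In control, Sftpd ran from 1071 CPM in E10 through 578 in E12, 504 in E1 and 218 in E0 down to 1.56 in E15, which was led by the Paneth-type defensin gene Defa6. Scgb1a1 had 2908 CPM in E10, then 1384 in E12 and 1344 in E1. Aqp3, Slc6a14 and Tmem45b also peaked in E10, at 645, 179 and 695 CPM. E10 and E12 held 139 and 186 control cells but only 10 and 12 maternal obesity cells, so these sub-clusters are mostly those of a single library.

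Vtcn1 did not follow this order. Its highest control levels were in E14 (78.7 CPM, 66 cells led by Tnfrsf11b and Cxcl2 with a median of 3356 UMIs) and E13 (61.8 CPM, led by RT1 class II genes). It reached 31.7 CPM in E8, which was led by Gbp2, Rbp4, Hspb8 and Hamp and where Hoxb13 was at 1.91 CPM, below its fibroblast-like level of 4.83 CPM. Other genes were also found where Hoxb13 was near 0. In E7 Aqp3 had 69.2 CPM in control against 4.38 in maternal obesity, and Hoxb13 had 3.52 and 0 CPM. Tmem45b had 39.4 CPM in control against 85.6 in maternal obesity in E8, and 28.4 and 54.4 CPM in E6, led by Shh. In E8 and E6 it was higher in maternal obesity, 2.17-fold (1.77 to 2.68) in E8 and 1.92-fold (1.61 to 2.29) in E6.

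**Figure D3:**
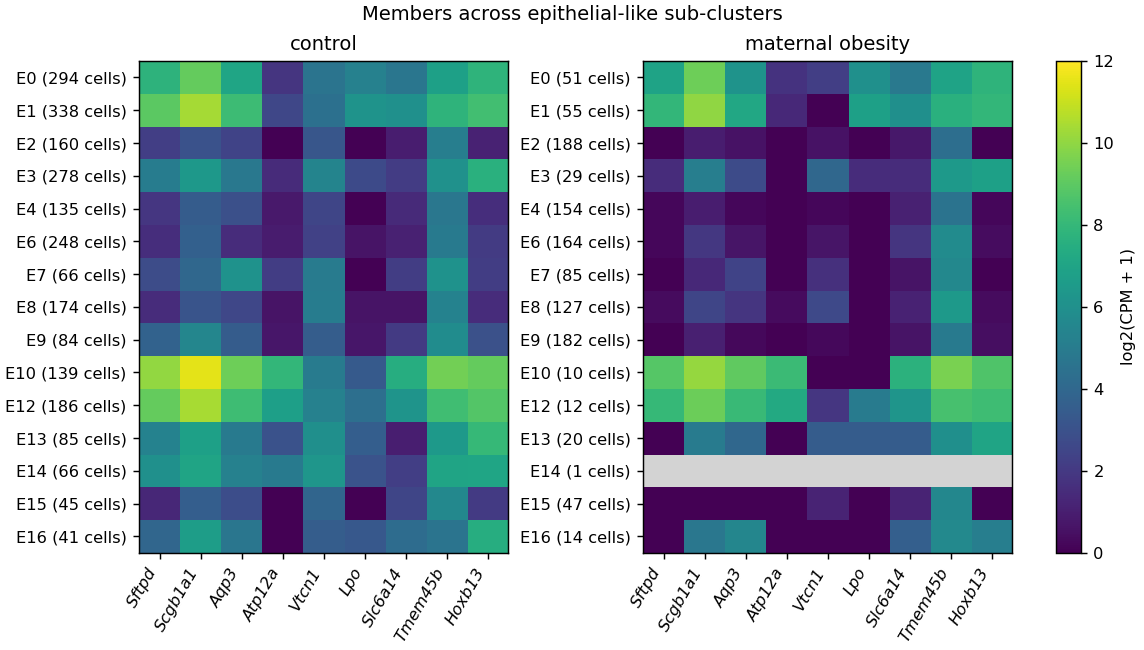
Level of the 8 genes and Hoxb13, as log2 of CPM plus 1, in the 15 epithelial-like sub-clusters with at least 30 control cells, in control (left) and maternal obesity (right). Grey marks a sub-cluster with fewer than 10 cells. Levels of Sftpd, Scgb1a1, Aqp3 and Slc6a14 were highest in E10, E12, E1 and E0. Atp12a was highest in E10 and E12 and Lpo in E1. Vtcn1 in control was spread over many rows, and Tmem45b was present in all the rows of both libraries that were drawn.

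Cells with Hoxb13 made up 38.6% of control epithelial-like cells (810 of 2101) and 8.82% of maternal obesity ones (97 of 1100). Fibroblast-like cells had Hoxb13 in 3.11% and 0.0789%. Of control Hoxb13-positive cells 55.2% had Sftpd, against 8.67% of Hoxb13-negative ones, and in maternal obesity 45.4% against 1.30%. For Scgb1a1 the shares were 61.1% against 14.6% in control and 69.1% against 2.99% in maternal obesity. Aqp3 was in 52.0% against 14.1% and in 40.2% against 1.89%. Slc6a14 was in 19.51% against 3.25% and in 19.6% against 1.30%.

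The rarer genes showed the same direction. Atp12a was in 11.4% of Hoxb13-positive and 1.55% of Hoxb13-negative control cells, and in 8.25% and 0.299% in maternal obesity. Lpo was in 11.0% and 2.17% in control and in 18.6% and 1.20% in maternal obesity. Tmem45b was in 54.7% and 23.3% in control and in 54.6% and 17.0% in maternal obesity, so many Hoxb13-negative cells carried it. Vtcn1 was in 14.2% and 8.44% of control cells and in 3.09% (3 cells) and 0.897% of maternal obesity cells.

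In control 7 of the 8 genes reached 1.5 times the co-detection given by the shares, where 5.42% of genes in at least 1% of cells did, and Vtcn1 was at 1.33. In maternal obesity all 8 did, where 15.8% of genes did. Vtcn1 rests there on 3 cells where 1.06 were given. Comparing Hoxb13-positive with Hoxb13-negative cells, 10.6% of genes in control and 10.2% in maternal obesity were at least 2-fold higher. Sftpd was 10.3-fold higher in control and 60.3-fold in maternal obesity, Atp12a 10.7-fold and 36.2-fold, and Vtcn1 1.84-fold (1.62 to 2.09) and 2.92-fold (1.35 to 5.84). The Hoxb13-negative level of Sftpd was 45.0 CPM in control and 3.51 in maternal obesity, and its fibroblast-like level 7.12 and 0.298 CPM. The sizes of these folds are therefore not compared between libraries.

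**Figure D4:**
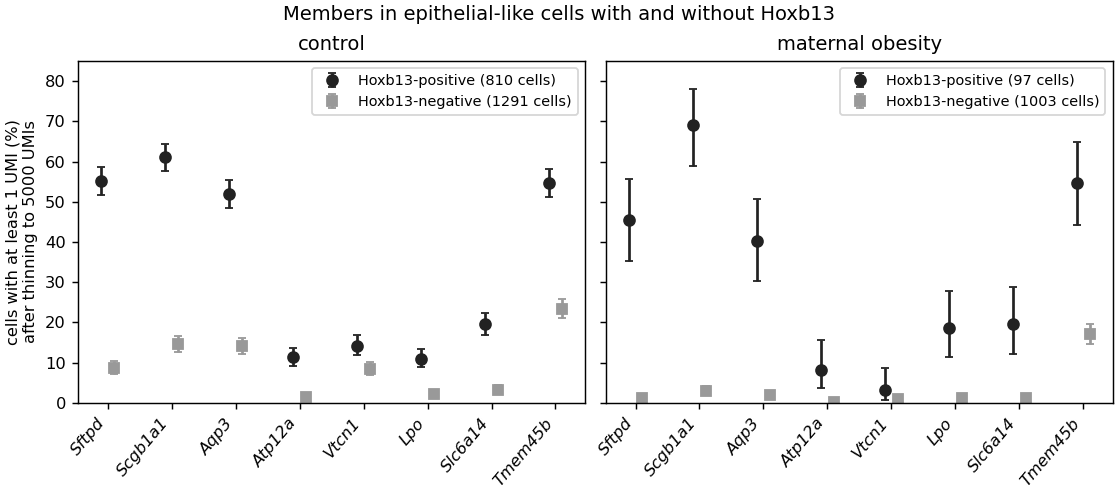
Percentage of Hoxb13-positive (black circles) and Hoxb13-negative (grey squares) epithelial-like cells with at least 1 UMI of each gene after thinning to 5000 UMIs, in control (left) and maternal obesity (right), with exact Clopper-Pearson 95% intervals. Among Hoxb13-positive cells the intervals of the 2 libraries overlapped for each gene except Vtcn1 (14.2% and 3.09%).

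Shares were also taken by the number of posterior HOX transcripts in a cell. Over Hoxa13, Hoxb13, Hoxd13, Hoxd12 and Hoxd11 together, control cells with 0, 1, 2 and 3 or more UMIs had Sftpd in 7.33%, 39.0%, 54.1% and 68.2%. In maternal obesity the shares were 1.30%, 33.3%, 41.7% and 60%. At least 3 of the 8 genes were found in 8.38%, 42.7%, 53.6% and 69.1% of control cells by the same steps. In maternal obesity they were found in 1.40%, 47.6%, 44.4% and 64.0%, the last from 25 cells (42.5 to 82.0). For this share the intervals of the libraries overlapped at each step with posterior HOX UMIs and lay apart at the step without them. Not every gene rose at each step. In control Vtcn1 had 8.14%, 14.7%, 16.8% and 12.4%, Lpo 1.77%, 8%, 13.2% and 12.4%, and Tmem45b 22.6%, 47.7%, 44.1% and 65.9%. In maternal obesity Lpo had 1.00%, 19.0%, 22.2% and 16%, and Atp12a, Vtcn1, Slc6a14 and Tmem45b also fell at a step.

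Within Hoxb13-positive cells the library difference was smaller for 6 of the genes, was still large for Vtcn1 and turned round for Lpo. Sftpd had 461 CPM in control against 212 in maternal obesity, 2.18-fold lower (2.01 to 2.37), where it was 8.90-fold lower over all epithelial-like cells. Scgb1a1 was at 1188 and 831 CPM, 1.43-fold lower (1.37 to 1.49). Aqp3 was at 245 and 137 CPM, 1.79-fold lower (1.62 to 1.99), and Atp12a at 46.8 and 28.8 CPM, 1.63-fold lower (1.30 to 2.06). Tmem45b was at 232 and 205 CPM, 1.13-fold lower (1.04 to 1.23). For Slc6a14, at 54.6 and 49.5 CPM, the interval of the fold reached from 0.926 to 1.32. The Hoxb13-positive cells were not made up alike in the libraries. E0 held 19.3% of them in control and 32.0% in maternal obesity, and E1 23.3% and 27.8%. E10 held 11.7% and 9.28%, and E12 17.8% and 9.28%. What this make-up adds to the ratios was not tested.

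Vtcn1 and Lpo went opposite ways in the Hoxb13-positive cells. Vtcn1 had 29.7 CPM in control against 3.68 in maternal obesity (507 and 11 UMIs), 8.08-fold lower (4.48 to 16.3). Lpo had 39.1 CPM in control against 73.9 in maternal obesity, 1.89-fold higher (1.62 to 2.20). In the sum over all epithelial-like cells Lpo was 2.08-fold lower, so its direction depended on which cells were summed. At least 2-fold lower within Hoxb13-positive cells were 2 of the 8 genes, Sftpd and Vtcn1, against 4.08% of 11526 genes. The count was 1 without the cells of the highest doublet scores or without E10 and E12. Hoxb13 itself had 403 CPM in control against 294 in maternal obesity in the cells that carry it.

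Most UMIs of most of the genes lay in Hoxb13-positive cells. For Sftpd these cells held 85.5% of UMIs in control and 85.7% in maternal obesity, and for Lpo 77.9% and 75.4%. For Tmem45b they held 68.1% and 31.0%, and for Vtcn1 51.5% and 22.4%. Hoxb13-negative cells kept a library difference. There 7 of 8 genes were at least 2-fold lower in maternal obesity, against 4.2% of 12962 genes, from Lpo at 2.67-fold to Sftpd and Vtcn1 at 12.8-fold, while Tmem45b was 1.39-fold lower (1.29 to 1.49). Hoxb13 was at 30.6 CPM in these control cells and 5.82 CPM in the maternal obesity ones, since a cell without Hoxb13 after thinning can hold it at full depth. The free RNA of the control library was also higher, as given above, and its part in this difference was not tested.

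**Figure D5:**
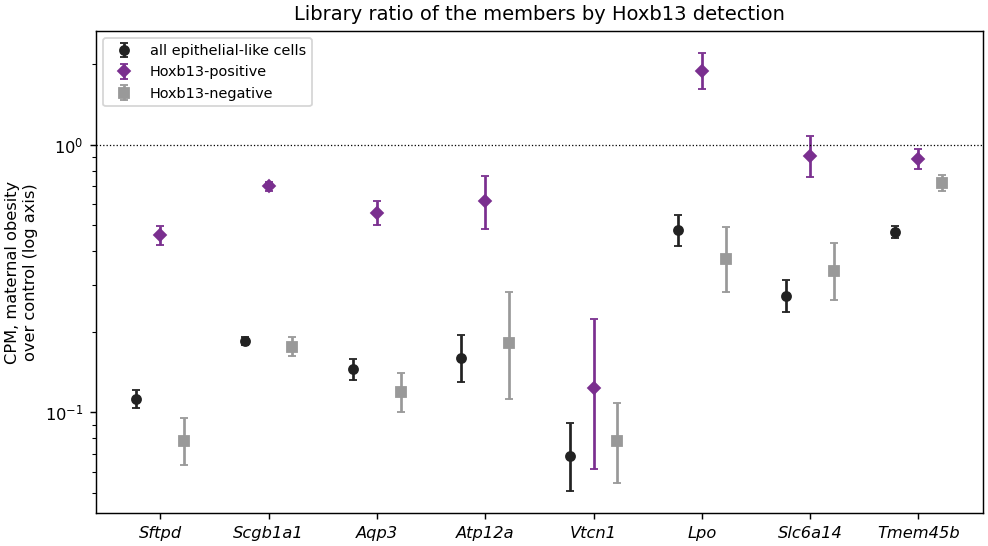
Ratio of the level in maternal obesity over control (log axis; dotted line at 1) for each gene in all epithelial-like cells (circles), Hoxb13-positive cells (diamonds) and Hoxb13-negative cells (squares), with exact conditional binomial 95% intervals. For all genes but Lpo the 3 ratios were below 1, and Lpo was at 1.89 in Hoxb13-positive cells. Vtcn1 stayed low in all 3.

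Sub-clusters with cells of both libraries were compared in turn. In E1 (338 control and 55 maternal obesity cells) Sftpd was 2.09-fold lower (1.85 to 2.36), Aqp3 2.04-fold lower (1.75 to 2.39) and Scgb1a1 1.29-fold lower (1.22 to 1.37). In E0 (294 and 51 cells) Sftpd was 1.75-fold lower (1.54 to 1.99) and Aqp3 1.83-fold lower (1.55 to 2.18), while Scgb1a1 had 580 CPM in control against 652 in maternal obesity, 1.12-fold higher (1.06 to 1.19). Lpo was higher in maternal obesity in both, 1.62-fold (1.32 to 1.97) in E1 and 1.73-fold (1.41 to 2.11) in E0. Slc6a14 and Tmem45b had intervals that include a ratio of 1 in both. Vtcn1 was at 23.6 and 3.75 CPM in E0, 6.29-fold lower (3.14 to 14.8), and in E1 its 109 control UMIs stood against 0 in maternal obesity, at least 8.51-fold lower with the 0 set at 3 counts and 6.81-fold at the lower bound of the exact interval.

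In E10 and E12 the difference also varied between genes. Sftpd and Scgb1a1 were lower in maternal obesity. Sftpd was lower 2.36-fold (1.87 to 3.03) in E10 and 2.23-fold (1.81 to 2.78) in E12, and Scgb1a1 2.63-fold (2.26 to 3.07) and 2.21-fold (1.93 to 2.53). For the transport genes Aqp3, Atp12a and Slc6a14 no lower level was seen beyond counting error. Aqp3 was at 645 and 534 CPM in E10 and at 305 and 284 CPM in E12, and Atp12a at 243 and 292 CPM in E10 and at 108 and 153 CPM in E12, where it was 1.43-fold higher (1.06 to 1.89). Lpo in E12 had 89 and 11 UMIs, a ratio of 1.53 (0.737 to 2.87). These values rest on 10 and 12 maternal obesity cells.

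Vtcn1 was lower in E8 as well, where Hoxb13 was at its background. It had 31.7 CPM in control against 5.31 in maternal obesity, 5.97-fold lower (3.61 to 10.4), from 116 and 18 UMIs. It was lower in 9 of the 9 sub-clusters that held 30 cells or more in both libraries, and so were Sftpd and Aqp3. Atp12a had 0 UMIs in both libraries in E2 and E15, so it has no direction there. In E8 and E9 it had 2 and 1 control UMIs against 1 and 0 in maternal obesity. In fibroblast-like cells Vtcn1 had 1 UMI in control and 0 in maternal obesity. The mean log2 ratio over the 9 sub-clusters, each with equal weight, was -3.72 for Vtcn1, -2.73 for Aqp3 and -0.05 for Tmem45b. Aqp3 exceeded the fibroblast-like level of 3.82 CPM in 8 of the 9 in control. In E2, E8, E15 and E4 it did so narrowly, at 4.28, 4.92, 6.25 and 6.67 CPM. The fibroblast-like level of Aqp3 in maternal obesity was 0.149 CPM, and the part of free RNA in these ratios was not tested. Equal weights say little of Sftpd and Scgb1a1, whose control level exceeded the fibroblast-like one in only 3 of the 9, E0, E1 and E9.

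Genes of the same pathways were counted in epithelial-like cells among those with at least 20 UMIs, by the same 2-fold limit, which 6.35% of all genes passed downward and 5.39% upward. Of the posterior HOX genes 8 of 9 were lower in maternal obesity, with Hoxd13 at 16.2 and 3.24 CPM and Hoxd11 at 5.14 and 0.690 CPM, while Hoxb9, which is expressed further forward, was at 11.6 and 19.6 CPM. Their median log2 ratio was -2.10, beside 0.05 for all genes. Of the genes of the proximal, absorptive epithelium 9 of 13 were higher and 0 lower (median log2 ratio 2.66). Among them were Enpep, a brush-border peptidase, at 3.62 and 32.3 CPM, and Ccl25, a lymphocyte-attracting chemokine of the small intestine, at 1.01 and 16.0 CPM. Hoxb13-positive control cells had 0.0848 times the Enpep level of Hoxb13-negative ones.

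Among other secreted mucosal defence genes 5 of 12 were lower and 2 higher (median -0.72), where 6.35% and 5.39% of all genes were. The genes of this list with the most UMIs were less than 2-fold apart, with Lypd8, which keeps bacteria off the colonic surface, at 1410 and 876 CPM and Wfdc2, a protease inhibitor, at 372 and 220 CPM. The other collectins and surfactant genes had 3 genes to count, 1 lower and 1 higher (median -0.21). The lower was Sftpa1, surfactant protein A, at 13.7 and 3.06 CPM, 4.48-fold lower (3.63 to 5.57). It was found in 11.3% of control cells with Sftpd (8.77 to 14.2) and 2.01% of those without. Sftpb and Sftpc, the surfactant proteins of the alveolus, had 0 UMIs in both libraries. Among airway markers Nkx2-1 and Bpifa1 were also at 0, Scgb3a2 had 5 and 1 UMIs and only Sftpa1 had 20.

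Of the epithelial oxidases and peroxidases besides Lpo 5 of 10 were lower and 0 higher (median -0.88), beside 6.35% and 5.39% of all genes. Duox2 was at 16.7 and 7.44 CPM, 2.24-fold lower (1.94 to 2.60), and Gpx2, a glutathione peroxidase, at 906 and 1335 CPM. Of the other aquaporins 0 of 5 were lower and 2 higher (median -0.05), with Aqp8, a channel of surface colonocytes, at 9.69 and 27.2 CPM and Aqp11 at 27.6 and 26.6 CPM. The higher ones were Aqp7, named after its values were seen, and Aqp8, and Aqp3, chosen for its direction, was the lower one. Of the proton and sodium pump subunits 2 of 7 were lower and 0 higher (median -0.48). Fxyd4 was at 15.5 and 2.61 CPM, 5.92-fold lower (4.73 to 7.48), with an 18.2-fold higher level in Hoxb13-positive than Hoxb13-negative control cells.

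Of the colonic ion transport genes 6 of 16 were lower and 2 higher (median -0.72), beside 6.35% and 5.39% of all genes. The sodium channel subunit Scnn1g was at 1.98 and 0.180 CPM, from 94 and 6 UMIs, and Scnn1b at 2.11 and 0.510 CPM. Hsd11b2, which protects the aldosterone receptor from glucocorticoids, was at 64.9 and 17.6 CPM, and Best2 at 85.5 and 16.1 CPM. Slc26a3, a chloride-bicarbonate exchanger, was higher, at 1.31 and 8.25 CPM. Amino acid transporters besides Slc6a14 had 0 of 10 lower and 0 of 10 higher (median 0.09), with Slc3a2 at 93.2 and 134 CPM. Of the other B7 genes 1 of 4 was lower and 0 higher (median -0.33). It was Cd274 (named after its values were seen) at 1.14 and 0.420 CPM, and Cd276 was at 15.01 and 17.2 CPM.

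Squamous and basal markers had 2 of 3 lower (median -4.56), beside 6.35% of all genes. Their summed level was 18.4 and 13.4 CPM over 10 genes. The remaining gene of the 3, the keratin Krt15, went the other way, at 6.84 and 12.8 CPM, 1.88-fold higher (1.62 to 2.18). The keratin Krt4 had 185 and 5 UMIs and the cornified envelope gene Sprr1a 349 and 7, while Krt5 and Tp63, which define basal cells, had 2 UMIs each in control and 0 in maternal obesity. Urothelial markers had 4 of 6 lower (median -1.65), with a summed level of 455 and 157 CPM. Upk1b stood at 3.31 and 0.300 CPM, Upk2 at 3.75 and 0.330 CPM and Krt7, which is also found in many simple epithelia, at 432 and 150 CPM. Krt4 was in 16.1% of control cells with Atp12a against 0.905% of the others. Whether cells of the neighbouring anal or urogenital epithelium have a part in the Atp12a level was not tested.

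The genes most like the 8 in control, by the median over the 8 genes of the Pearson correlation across 2101 cells, were Sbspon, B3gnt7, Mrps6, Ckmt1, Hoxb13, Ahnak, Galnt18, Krt19, Anxa1 and Adh6. Their medians ran from 0.40 for Sbspon to 0.32 for Adh6. Hoxb13 was the fifth of 10521 genes in control and ranked 8 of 10519 in maternal obesity. B3gnt7, a glycosyltransferase, ranked 4 in maternal obesity with 0.34, and Anxa1, an annexin, ranked 3 with 0.35, while Ahnak ranked 111 with 0.14. Anxa1 was at 220 and 45.2 CPM and B3gnt7 at 288 and 68.5 CPM in control and maternal obesity.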

How the data were processed

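Epithelial-like cells of 2 droplet libraries, 1 per group, were compared. The authors deposited raw UMI counts per gene and barcode, not normalised. Cell Ranger is given as 2.1.1 per the submitters' processing notes and as 6.1.2 per the file headers, and no source used here names the genome build. Counts of identifiers sharing a symbol (173 symbols) were summed. Cells were clustered in scanpy 1.11.5 (2000 variable genes, 30 components, 15 neighbours, Leiden resolution 1, no adjustment between libraries) after Scrublet doublet removal, and classes were named from marker lists. Epithelial sub-clusters led by smooth muscle or haemoglobin genes were set aside. Intervals were exact: conditional binomial for ratios of summed counts and Clopper-Pearson for shares of cells. No test was possible with 1 library per group. The calculations were tested on simulated data.

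The 8 genes and all gene lists were chosen with earlier results of these data known. Named genes were the 8, Hoxb13, the 3 of each list with the most control UMIs, list genes at least 4-fold different with 100 UMIs, and the 10 genes most correlated with the 8; other partners and leading genes were named after their values were seen. Hoxa10, Dmbt1, Mbl2, Car4 and Foxj1 were not matched and are not analysed here.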

Additional observations from a re-analysis of the deposited data

How the results depend on the processing

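Alternatives were limits of 10% mitochondrial UMIs and 1000 genes, other treatments of doublets, epithelial cells taken by markers alone, other folds, ratios and thinning depths, and 3 chosen after seeing the data: mixed sub-clusters kept, E10 and E12 left out, and another random draw. Over all epithelial-like cells the 80 log2 ratios of the 8 genes under these alternatives were all negative. The range was widest for Slc6a14 (-2.17 to -0.56), Atp12a (-3.08 to -1.88) and Tmem45b (-1.12 to -0.05), where equal sub-cluster weights gave the upper end. The share of cells with at least 3 genes, 27.8% in control and 6% in maternal obesity, became 21.4% and 4.05% by markers alone, 18.8% and 4.36% without E10 and E12, 20.8% and 4.21% at 3000 UMIs, 34.3% and 8.72% at 10000 UMIs, 41.3% and 10.1% unthinned, and 14.5% and 2.27% when a gene needed 2 UMIs. The control share was 25.6% with mixed sub-clusters kept. Of the 8 genes, 5 were at least 4-fold lower. Within Hoxb13-positive cells the 2 genes at least 2-fold lower became 4 at 1.5-fold, 1 at 4-fold, 1 without the highest doublet scores and 1 without E10 and E12. At a co-detection ratio of 2 with Hoxb13 the control count fell from 7 to 3, where the ratio cannot exceed 2.59. The share of all genes at 1.5-fold, at 4-fold or at a ratio of 2 was not computed. Nothing is therefore read from the counts of the 8 genes at those limits. Among the counts and shares under all these alternatives 87 values were within the limits set and 19 moved.

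No paired analysis was possible because each group has 1 library and the replicate numbers 1 and 2 are not shared. With 1 library per group no replicate was left out. Depth limits Vtcn1 (50 UMIs) and Atp12a (110 UMIs) in maternal obesity most.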
